A study of Mus musculus with 44 samples.

Results

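The 9 genes described here mark B lymphocytes and the antibody-secreting plasma cells that B cells become: Cd79a, Cd79b, Ms4a1, Pax5, Cd22, Cr2, Fcer2a, Jchain and Mzb1. They were chosen by name, with earlier results of these data known. All 9 were found in both expression tables of the study, among 24150 genes measured in 14 lungs and 26940 genes measured in 30 lungs. All lungs came from C57BL6j mice, 1 polyA RNA library a lung from a piece of about 3 mm3. The values are the submitters' normalized counts, whose exact normalization is not given. In the intratracheal experiment, LL/2-Luc2 cells, a mouse Lewis lung carcinoma line that carries a luciferase reporter, were instilled into the airway of mice with a mutant Timp2 gene (MT2) or wild-type mice (WT). MT2 groups were tumour lungs given recombinant human TIMP2 (rTIMP2), tumour lungs given HBSS, a salt buffer, and tumour-free lungs, and the WT groups were the same 3, with 5 lungs in each of these 6 groups. In the subcutaneous experiment, wild-type mice carried the carcinoma under the skin of the flank, and their early metastatic lungs came from mice given rTIMP2 from day 7 (4 lungs), rTIMP2 from day 0 (5 lungs) or HBSS (5 lungs). rTIMP2 was given daily into the peritoneum at 200 ug/kg/day. TIMP2 protein, once secreted, blocks enzymes that cut the matrix around cells. The labels used here do not describe the MT2 allele further, so what is left of the protein in MT2 mice is not known here.

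B cells sense antigen through a membrane antibody that cannot signal by itself and is held at the surface by the Cd79a and Cd79b proteins, which carry the signal inward. Pax5 keeps a cell in the B lineage, and its loss accompanies the change into a plasma cell, which gives up most B cell surface proteins and makes secreted antibody in large amounts. A healthy mouse lung holds scattered and circulating B cells and few plasma cells, and in a piece of bulk tissue fewer cells of a type and less RNA per cell cannot be told apart.

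The promoters of 3 members are shown because they stand for the patterns below: Cd79a and Cd22 moved with the other B cell genes, and Jchain followed them less closely. RefSeq windows on GRCm38.p6, 250 bases before to 50 after a start site, were used for 6 of the 9 members, with 8 windows in all. Mzb1 was left out of this search. Capitals mark every match, on either strand, to TCCC, any 2 bases and GGGA (the palindrome bound by EBF1), to ATGCAAAT (the octamer of antibody genes), to GAGGAA (a core bound by PU.1) or to CAGGTG (an E-box bound by E2A).
Cd79a, chr7:24897247-24897546, plus strand: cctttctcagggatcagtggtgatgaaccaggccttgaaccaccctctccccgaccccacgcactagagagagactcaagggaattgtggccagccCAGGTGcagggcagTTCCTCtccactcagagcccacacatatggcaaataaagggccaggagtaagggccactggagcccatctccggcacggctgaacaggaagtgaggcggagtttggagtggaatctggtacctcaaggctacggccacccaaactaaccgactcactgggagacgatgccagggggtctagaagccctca
Cd22, chr7:30878979-30879278, minus strand: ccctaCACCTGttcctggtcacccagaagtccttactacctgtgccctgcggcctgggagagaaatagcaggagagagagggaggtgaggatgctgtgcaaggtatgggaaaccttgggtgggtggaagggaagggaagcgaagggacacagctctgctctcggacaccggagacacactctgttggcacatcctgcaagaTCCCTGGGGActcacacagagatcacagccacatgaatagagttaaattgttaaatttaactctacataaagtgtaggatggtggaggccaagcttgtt
Jchain, chr5:88527848-88528147, minus strand: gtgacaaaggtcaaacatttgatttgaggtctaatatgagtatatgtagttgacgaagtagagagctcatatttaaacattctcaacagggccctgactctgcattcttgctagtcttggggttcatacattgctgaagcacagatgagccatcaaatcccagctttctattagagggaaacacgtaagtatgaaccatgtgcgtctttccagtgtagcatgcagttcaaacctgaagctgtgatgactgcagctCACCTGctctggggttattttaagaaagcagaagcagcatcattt
The Cd22 window held the EBF1 palindrome at bases 202 to 211 and an E-box, the Cd79a window an E-box and a PU.1 core on the opposite strand, and the Jchain window an E-box. Of 32851 RefSeq windows, 0.904% held the EBF1 palindrome, 1.735% the octamer, 28.276% the PU.1 core and 20.212% the E-box, and no marked stretches overlapped in these 3 windows. An E-box was also in the Cr2 window and in 1 of the Fcer2a windows, the Pax5 window held none of the 4 motifs, and none of the 8 windows held the octamer. A match is a string of letters and does not show that a factor binds there.

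On mm10, each gene spans the same bases in the submitters' table and in GENCODE M21. Cd79a lies at chr7:24897381-24902197 (plus strand) and Cd79b at chr11:106311341-106314762 (minus). Ms4a1 lies at chr19:11249675-11266241, Pax5 at chr4:44524757-44710487 and Cd22 at chr7:30865402-30880342, all on the minus strand. Cr2 lies at chr1:195136811-195176716, Fcer2a at chr8:3681737-3694175, Jchain at chr5:88519809-88527891 and Mzb1 at chr18:35647267-35649367, also on the minus strand. Values are counts over whole genes, so exon, intron and UTR parts were not separated. Ms4a1, Pax5 and Cd22 overlap antisense or unclassified genes of the other strand, and Mzb1 overlaps SPATA24 on its own strand, which reached 20.7 in the intratracheal table, so reads in those stretches are uncertain.

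In the tumour-free lungs, Cd79a and Cd79b had the highest levels per length and Cr2 the lowest. As mean normalized count per kb of exon, WT tumour-free lungs had 384 for Cd79a, 314 for Cd79b, 72.1 for Cd22, 68.1 for Jchain, 61.6 for Fcer2a, 49.8 for Ms4a1, 42.0 for Mzb1, 29.2 for Pax5 and 12.2 for Cr2. MT2 tumour-free lungs had 379 for Cd79a, 289 for Cd79b, 74.6 for Cd22, 66.7 for Fcer2a, 54.8 for Ms4a1, 49.3 for Jchain, 35.5 for Mzb1, 28.9 for Pax5 and 12.9 for Cr2. Cd22, Jchain, Fcer2a and Ms4a1 lie close enough that their order differs between the genotypes. Without tumour, no member differed between MT2 and WT lungs: 0 of 9 passed, against 0.0238% of all genes, and the difference farthest from 0 was -0.61 ± 0.35 (SE) on the log2 scale, for Jchain. limma without trend and robust settings also called 0 members. Here and below, a gene passed if limma's moderated test on log2(value + 1) gave p under 0.05 after Benjamini-Hochberg adjustment across the whole table. A log2 difference on that scale understates the change of low genes. In that comparison 1633 of 16774 genes had an unadjusted p under 0.05.

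Carcinoma in the lung of HBSS mice went with far lower B cell gene levels in both genotypes. In MT2 mice all 9 members fell, by 2.18 to 5.69 on the log2 scale, and in WT mice 8 of 9 fell, all but Jchain. Lower calls were made for 35.9% of all genes in MT2 mice and 37.7% in WT mice, and the median of all genes was near 0 (-0.05 and -0.07), while the members' medians were -4.37 in MT2 and -2.67 in WT lungs. In each genotype the HBSS and tumour-free lungs did not overlap for 7 members, those other than Jchain and Mzb1, where 31.4% of all genes in MT2 and 31.1% in WT lungs were lower without overlap. Genes were tested only with 10 or more normalized counts in as many lungs as the smaller group holds. Every MT2 HBSS lung was under 10 for Cr2 and Fcer2a, so their lack of overlap in MT2 mice followed from that filter.

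**Figure D1:**
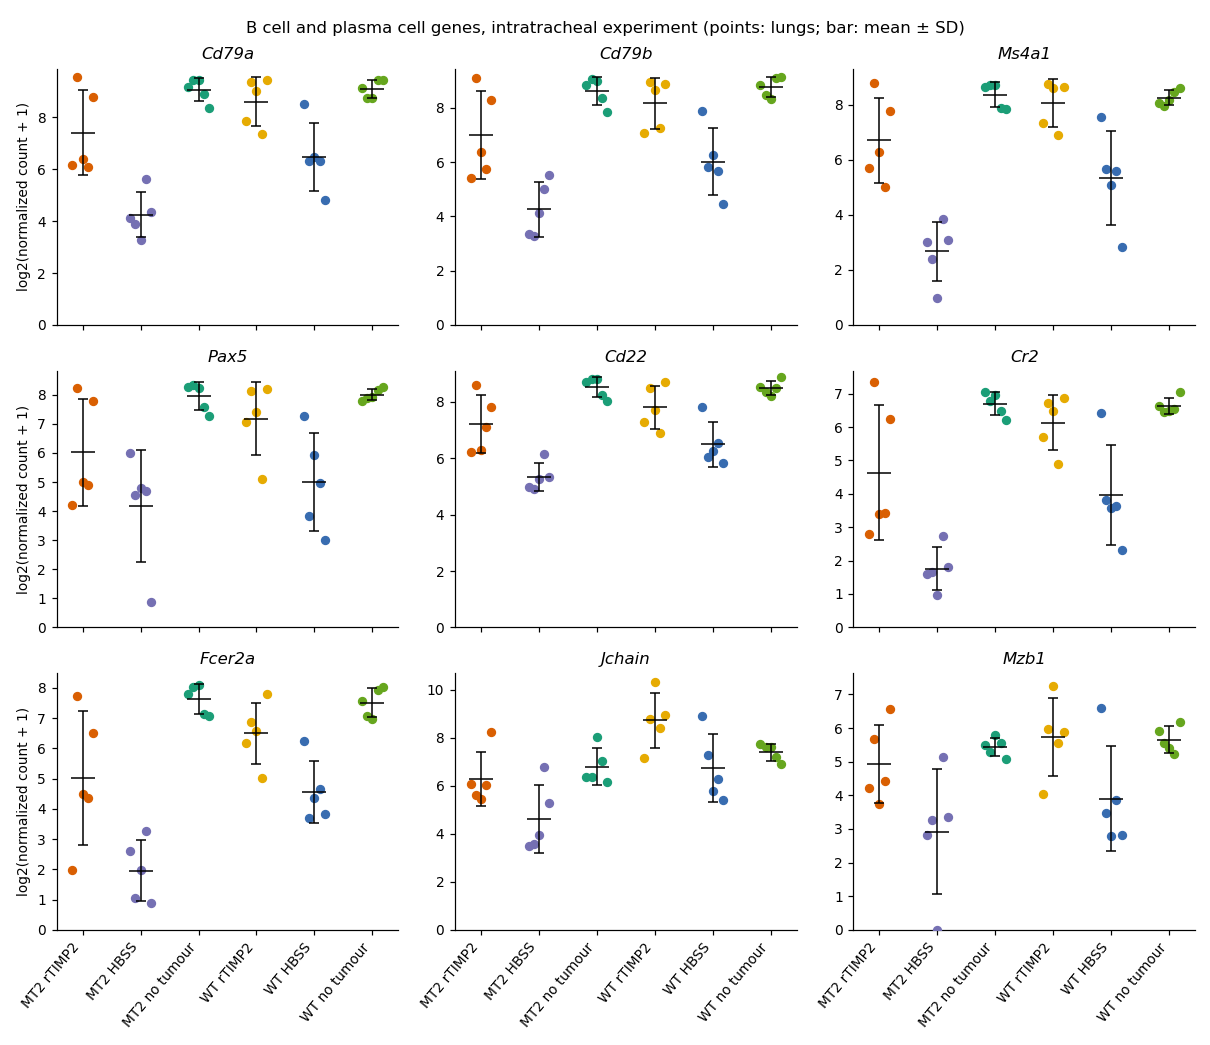
Level of each of the 9 genes in the 30 lungs of the intratracheal experiment, as log2(normalized count + 1), by group. Points are lungs, and bars are the mean and SD of the log2 values over 5 lungs. For Cd79a the 5 MT2 HBSS lungs lie between 8.70 and 48.5 normalized counts, below all 5 MT2 tumour-free lungs at 327 to 693.

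Both genes of the signalling pair of the B cell receptor fell in each genotype. Cd79a had 16.3, 14.0, 8.70, 48.5 and 19.2 normalized counts in the 5 MT2 HBSS lungs, against 579, 693, 688, 471 and 327 in MT2 tumour-free lungs. It had 360, 78.7, 87.3, 77.5 and 27.2 in WT HBSS lungs, against 561, 424, 431, 692 and 687 in WT tumour-free lungs. Every HBSS lung was below every tumour-free lung of its genotype, and in WT mice HBSS replicate 1, at 360, was the nearest to the tumour-free lungs. The log2 difference was -4.80 ± 0.39 in MT2 mice (limma adjusted p = 1.54e-06) and -2.62 ± 0.53 in WT mice (limma adjusted p = 0.00112). Cd79b averaged 22.1 ± 15.8 in MT2 HBSS and 414 ± 129 in MT2 tumour-free lungs (SD, n = 5 each), a log2 difference of -4.37 ± 0.45. It averaged 87.1 ± 83.9 in WT HBSS and 449 ± 113 in WT tumour-free lungs, a log2 difference of -2.75 ± 0.50.

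Ms4a1, which encodes the surface protein CD20, and Fcer2a, the low-affinity IgE receptor CD23 of mature B cells, reached the lowest shares of the tumour-free level in MT2 mice. Ms4a1 had 7.15, 4.30, 0.966, 13.3 and 7.51 in MT2 HBSS lungs, against 398, 421, 413, 236 and 228 in MT2 tumour-free lungs. Its MT2 HBSS mean was 1.961% of the tumour-free mean, and its log2 difference was -5.69 ± 0.47. Fcer2a fell by 5.68 ± 0.46 in MT2 mice, with a mean of 3.70 ± 3.22 in HBSS and 206 ± 65.7 in tumour-free lungs. Both genes are close to 0 in the MT2 HBSS lungs, where the scale understates the change. In WT mice Ms4a1 had 187, 49.2, 32.7, 47.2 and 6.05 in HBSS lungs, against 265, 245, 286, 354 and 391 in tumour-free lungs, a log2 difference of -2.91 ± 0.67. Fcer2a differed by -2.97 ± 0.45 in WT mice.

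Cr2, a receptor for complement fragments found on B cells and on follicular dendritic cells, fell by 4.94 ± 0.34 in MT2 and by 2.67 ± 0.60 in WT mice. Its HBSS mean was 2.67 ± 1.79 in MT2 lungs, against 105 ± 24.2 in MT2 tumour-free lungs. Cd22, a receptor that binds sialic acid and damps B cell receptor signals, had an MT2 HBSS mean of 11.012% and a WT HBSS mean of 28.137% of the tumour-free mean, where Pax5 was at 10.738% in MT2 and 20.516% in WT mice. Cd22 had 30.6, 29.0, 37.7, 70.4 and 39.2 in MT2 HBSS lungs, against 414, 449, 453, 300 and 263 in MT2 tumour-free lungs, a log2 difference of -3.19 ± 0.26. In WT mice Cd22 fell by 2.00 ± 0.33. Pax5, the factor that keeps B cell identity, fell by 3.76 ± 0.77 in MT2 and by 3.01 ± 0.67 in WT mice. Its 5 MT2 HBSS lungs had 62.3, 22.6, 27.1, 24.7 and 0.835, so that Pax5 ran from 0.0435 to 3.81 times Cd79a there, against 0.404 to 0.530 times in MT2 tumour-free lungs.

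Of the plasma cell genes, both fell in MT2 mice, and only Mzb1 passed in WT mice. Plasmacytoid dendritic cells, another immune cell type, can also hold Jchain and Mzb1. Of 7 of their markers tested, 4 fell and 1 rose in MT2 mice, and 5 fell and 0 rose in WT mice. Lower calls covered 35.9% of all genes in MT2 and 37.7% in WT mice. The part of these cells in the 2 genes was not tested. Jchain, whose protein joins IgM and IgA into polymers, had 10.2, 10.8, 14.5, 108 and 37.6 in MT2 HBSS lungs, against 81.5, 81.9, 257, 130 and 70.3 in MT2 tumour-free lungs. The groups overlapped through HBSS replicate 4, and the log2 difference was -2.18 ± 0.62 (limma adjusted p = 0.00867). In WT mice Jchain had 483, 152, 54.6, 76.5 and 41.4 in HBSS lungs, against 209, 194, 193, 144 and 117 in tumour-free lungs, a log2 difference of -0.67 ± 0.57 that did not pass (limma adjusted p = 0.309). HBSS replicate 1 was above all 5 tumour-free lungs, and without it the log2 difference was -1.21 ± 0.33 (limma adjusted p = 0.0059). Mzb1, an endoplasmic reticulum protein that helps antibody assembly, fell by 2.52 ± 0.73 in MT2 mice (limma adjusted p = 0.00947). In WT mice it fell by 1.75 ± 0.64 (limma adjusted p = 0.0293), with 94.9, 10.1, 5.86, 13.6 and 6.01 in HBSS lungs, against 59.7, 46.0, 41.4, 36.1 and 71.9 in tumour-free lungs. The WT call of Mzb1 was lost when any of HBSS replicates 2 to 5 or tumour-free replicates 1 and 5 was left out, with adjusted p up to 0.0726.

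**Figure D2:**
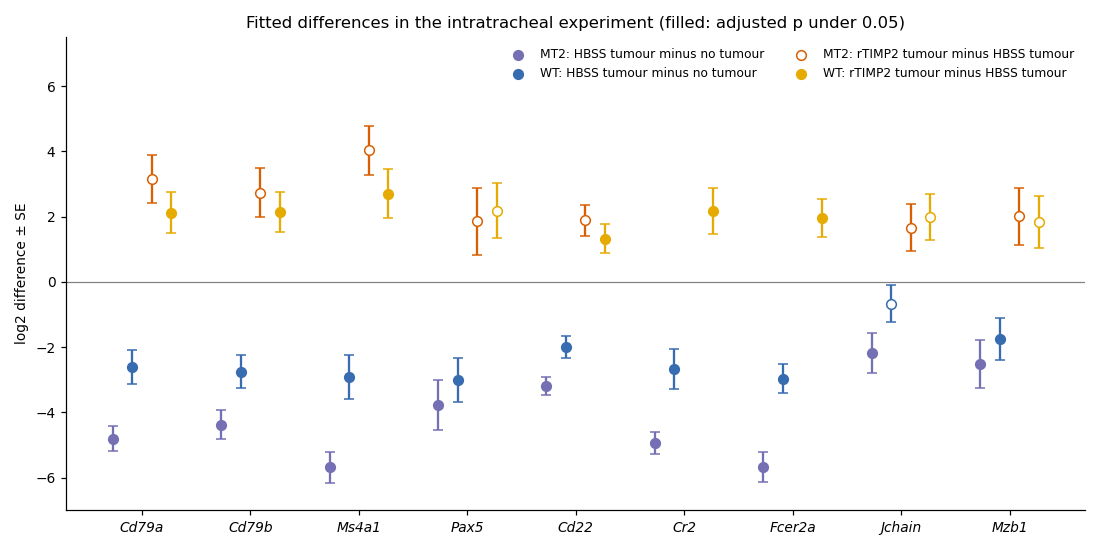
Fitted log2 difference with its SE for each gene in 4 comparisons of the intratracheal experiment, HBSS tumour minus tumour-free and rTIMP2 tumour minus HBSS tumour lungs, in MT2 and WT mice. Filled points passed the test, and Cr2 and Fcer2a have no point for MT2 rTIMP2 because they did not pass the filter there. The MT2 HBSS points lie between -5.69 and -2.18 and the WT HBSS points between -3.01 and -0.67.

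The log2 difference was further below 0 in MT2 than in WT mice for all 9 members, but the difference between the genotypes did not pass, and for Pax5 it turned to 0.04 ± 1.06 when libraries were scaled to Ptprc. The genotype by tumour interaction was -2.19 ± 0.69 for Cd79a, -2.78 ± 0.86 for Ms4a1, -2.71 ± 0.67 for Fcer2a and -2.27 ± 0.71 for Cr2 on the log2 scale, and -0.76 ± 1.08 for Pax5. limma called 0 of 9 members and 4 of 17927 genes (0.0223%), with 1776 genes at an unadjusted p under 0.05. The lowest adjusted p among the members was 0.164 with limma, for Fcer2a, and without MT2 HBSS replicate 4 the count was 1 of 9, with 0.270% of all genes called. Set side by side, MT2 HBSS lungs had lower means than WT HBSS lungs for all 9 genes, and limma called 0 of the 7 tested and 0 of 16299 genes (0% of all), with 1208 at an unadjusted p under 0.05. Fcer2a was the 1 tested member whose lungs did not overlap, with 5.11, 1.08, 2.90, 8.56 and 0.835 in MT2 HBSS and 74.4, 12.0, 19.4, 24.1 and 13.1 in WT HBSS lungs, where 0.810% of all genes were lower without overlap. Every MT2 HBSS lung was under 10 for Fcer2a, so the filter kept it only because every WT HBSS lung had 10 or more. Its lack of overlap was therefore fixed by the filter and carries no weight. limma without trend and robust settings also called 0 members in both comparisons. Cr2 and Mzb1 were not tested there because too few lungs had 10 normalized counts.

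Markers of several other cell types fell in the same lungs, and their part in the B cell gene levels was not tested. Ptprc (CD45), a gene of all leukocytes, fell by 2.18 in MT2 and by 1.26 in WT mice on the log2 scale. T cell markers fell for 11 of 11 genes in both genotypes, with a median of -3.05 in MT2 and -1.54 in WT mice, and their summed level was 117 to 329 in MT2 HBSS and 1346 to 1687 in MT2 tumour-free lungs, and 186 to 1178 in WT HBSS and 1224 to 1722 in WT tumour-free lungs. Endothelial and alveolar type 2 markers fell for 5 of 5 genes each in both genotypes. The carcinoma gene Hmga2 was 2624 to 5070 in MT2 HBSS and 9.52 to 14.1 in MT2 tumour-free lungs, and 2212 to 4713 in WT HBSS and 12.6 to 27.8 in WT tumour-free lungs. Macrophage markers rose for 4 of 6 genes in each genotype, and 1 fell in MT2 mice. Of 5 neutrophil markers, 0 passed in MT2 mice and 1 fell in WT mice. When every library was scaled so that Ptprc was equal, a choice made after the data were seen, 6 members were still lower in MT2 and 7 in WT lungs, with 10.3% of all genes called lower and 76.1% higher in MT2 and 13.4% lower and 64.7% higher in WT mice. That scaling put the median of all genes at 2.10 in MT2 and 1.18 in WT mice on the log2 scale. Cd79a then differed by -2.67 ± 0.38 in MT2 and by -1.36 ± 0.34 in WT mice. Jchain then differed by -0.06 ± 0.50 in MT2 and by 0.59 ± 0.38 in WT mice, and neither passed. Cd79a per 1000 Ptprc counts had a median of 54.2 in MT2 HBSS and 301 in MT2 tumour-free lungs, and of 105 in WT HBSS and 312 in WT tumour-free lungs.

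Other genes of B cells also fell. Of 23 tested from a list of other B cell genes, 20 fell and 0 rose in MT2 mice and 19 fell and 1 rose in WT mice, with medians of -3.99 and -1.84. Fcmr, a receptor for IgM, fell by 5.63 ± 0.35 in MT2 and by 3.55 ± 0.60 in WT mice. Pou2af1, a co-activator of antibody genes, fell by 4.84 ± 0.60 in MT2 mice, Cxcr5, the receptor for the follicle chemokine Cxcl13, by 4.76 ± 0.44 in MT2 mice, and in WT mice Vpreb3 differed by -2.96 ± 0.77 and Fcrla by -2.72 ± 0.61. Cd72, a B cell lectin, was the gene of this list that rose in WT mice, by 0.74 ± 0.16.

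A list of other plasma cell genes moved both ways: 3 rose and 4 fell of 10 in MT2 mice, and 4 rose and 4 fell of 11 in WT mice. Of all genes, 31.5% were called higher and 35.9% lower in MT2 mice, and 32.8% higher and 37.7% lower in WT mice. The counts of this list were close to those shares. Prdm1, the repressor that drives plasma cell fate, fell by 3.33 ± 0.28 in MT2 and by 2.10 ± 0.19 in WT mice, and Irf4 fell by 3.15 ± 0.45 in MT2 and by 2.09 ± 0.49 in WT mice. Fkbp11, a folding enzyme of secretory cells, rose by 2.42 ± 0.31 in MT2 and by 2.40 ± 0.28 in WT mice. These genes are also used by other cells, and the part of the carcinoma cells in their levels was not tested. Of the antibody constant genes, 7 of 9 fell and 0 rose in MT2 mice, led by Ighd at -5.85 ± 0.58 and Iglc2 at -3.68 ± 0.49. In WT mice 4 of 10 fell, Ighd at -2.97 ± 0.57, Iglc2 at -2.66 ± 0.63, Igha at -1.91 ± 0.49 and Iglc3 at -1.78 ± 0.58, and 3 rose, all of switched IgG classes: Ighg2c by 2.69 ± 0.80, Ighg2b by 2.34 ± 0.54 and Ighg1 by 2.28 ± 0.65. These WT counts of 4 and 3 were also close to the shares of all genes. Ighg2c had 208, 232, 19.4, 13.6 and 82.7 in WT HBSS lungs and 7.71, 11.6, 3.83, 21.4 and 8.14 in WT tumour-free lungs, and the groups overlapped. Of genes for B cell growth factors and follicle chemokines, 5 of 6 fell in MT2 and 6 of 7 in WT mice. Tnfsf13b (BAFF), a survival factor of B cells, differed by -3.58 ± 0.30 in MT2 and by -2.50 ± 0.37 in WT mice, and Ccl21a, a chemokine of lymphatic vessels, differed by -4.26 ± 0.60 in MT2 and by -2.89 ± 0.58 in WT mice. Of 4 germinal centre genes tested, 3 fell in each genotype, with Gcsam by 2.54 ± 0.32 in MT2 and by 1.80 ± 0.45 in WT mice. Of 3 antibody transport genes, Pigr, the epithelial receptor that carries polymeric antibody, differed by -4.74 ± 0.55 in MT2 and by -3.44 ± 0.76 in WT mice, and the inhibitory Fc receptor Fcgr2b rose by 1.75 ± 0.15 in MT2 and by 1.77 ± 0.14 in WT mice.

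The HBSS lungs just compared with tumour-free lungs are also what the rTIMP2 lungs were set against, so these comparisons share samples. Within the WT tumour lungs, rTIMP2 went with higher B cell genes, at the edge of the threshold. limma called 6 of 9 members higher in WT rTIMP2 than in WT HBSS lungs, against 16.0% of all genes: Cd79a, Cd79b, Ms4a1, Cd22, Cr2 and Fcer2a, with adjusted p between 0.0398 and 0.0497. Pax5 (limma adjusted p = 0.0679), Jchain (0.0562) and Mzb1 (0.0907) did not pass, and their log2 differences were 2.18 ± 0.84, 1.99 ± 0.71 and 1.84 ± 0.78. Cd79a had 233, 650, 518, 162 and 681 in WT rTIMP2 lungs, against 360, 78.7, 87.3, 77.5 and 27.2 in WT HBSS lungs. Replicates 2, 3 and 5 of rTIMP2 were above all HBSS lungs, and replicates 1 and 4 were below HBSS replicate 1, so the groups overlapped, as they did for every member. The log2 difference was 2.12 ± 0.64 for Cd79a, 2.14 ± 0.61 for Cd79b, 2.71 ± 0.76 for Ms4a1 and 1.33 ± 0.45 for Cd22. Ms4a1 had 161, 427, 389, 118 and 399 in WT rTIMP2 lungs, against 187, 49.2, 32.7, 47.2 and 6.05 in WT HBSS lungs. No member and no gene of the table was called when any 1 of rTIMP2 replicates 1, 2, 3 and 5 or HBSS replicates 2, 3, 4 and 5 was left out. Without rTIMP2 replicate 4 the count was 8 of 9, with 29.5% of all genes called higher in that fit, and without HBSS replicate 1 it was 9 of 9, with 24.2% of all genes called higher.

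Carcinoma RNA differed between the WT rTIMP2 lungs. The luciferase reporter had 0 normalized counts in WT rTIMP2 replicates 2, 3 and 5, whose Hmga2 levels were 23.5, 32.1 and 13.6 and whose Cd79a levels were in the WT tumour-free range of 424 to 692. In WT rTIMP2 replicates 1 and 4 the reporter had 23.3 and 67.7 counts, Hmga2 1198 and 2780, and Cd79a 233 and 162. The part of the carcinoma level in the B cell gene difference was not tested. Against WT tumour-free lungs, WT rTIMP2 lungs had 0 of 9 members called, with 0.208% of all genes called, 35 of 16815, and 2868 at an unadjusted p under 0.05, and limma without trend and robust settings also called 0 members. Their Fcer2a differed by -1.01 ± 0.45 and their Jchain by 1.32 ± 0.47 on the log2 scale from the tumour-free lungs.

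**Figure D3:**
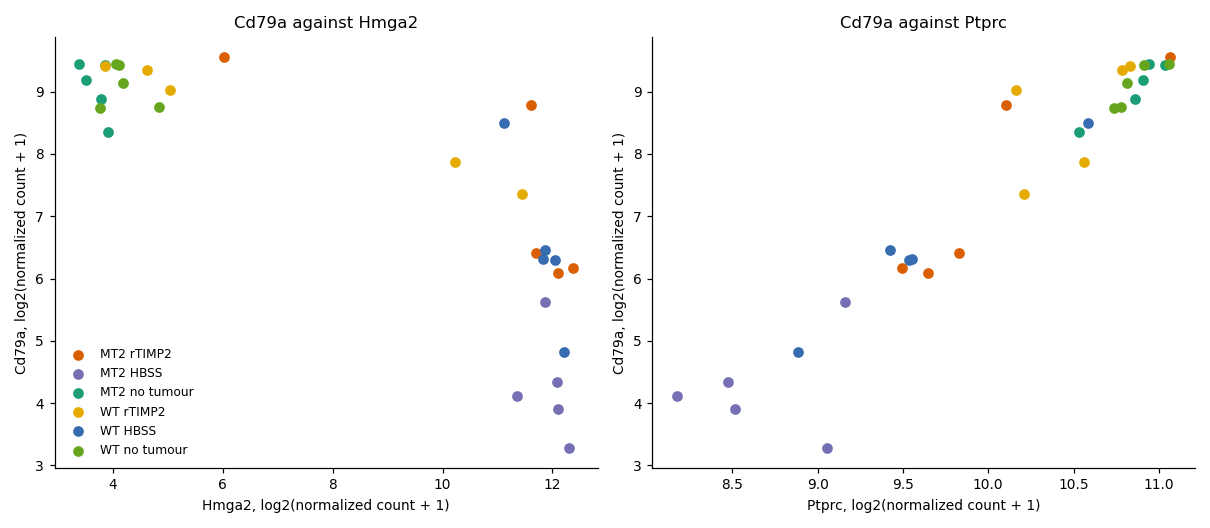
Cd79a against the carcinoma gene Hmga2 (left) and against the leukocyte gene Ptprc (right) in the 30 intratracheal lungs, each as log2(normalized count + 1). Points are lungs, coloured by group. WT rTIMP2 replicates 2, 3 and 5 and MT2 rTIMP2 replicate 2 lie beside the tumour-free lungs in the left panel, with Hmga2 at 23.5, 32.1, 13.6 and 63.9 normalized counts. In the right panel WT rTIMP2 replicate 3 lies apart from them, with Ptprc at 1145. Tumour-free lungs had 1704 to 2137 of Ptprc in WT and 1477 to 2102 in MT2 mice.

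In MT2 mice no gene passed between rTIMP2 and HBSS lungs. The SD of rTIMP2 lungs was larger in MT2 than in WT mice for the B cell genes and smaller for Jchain and Mzb1. limma's unadjusted p was 0.00108 for Cd79a and 0.00018 for Ms4a1, against 0.00698 and 0.0045 in WT mice. It was also lower in MT2 mice for Cd79b, Cd22 and Mzb1, and higher for Pax5 and Jchain. In the WT comparison 8032 of 16908 genes had an unadjusted p under 0.05. Cd79a had 70.6, 753, 83.9, 67.0 and 441 in MT2 rTIMP2 lungs, against 16.3, 14.0, 8.70, 48.5 and 19.2 in MT2 HBSS lungs. Every rTIMP2 lung was above every HBSS lung, and the log2 difference was 3.15 ± 0.73 (limma adjusted p = 0.307). Ms4a1 had 51.0, 439, 77.3, 31.1 and 214 in MT2 rTIMP2 and 7.15, 4.30, 0.966, 13.3 and 7.51 in MT2 HBSS lungs, a log2 difference of 4.04 ± 0.75 (limma adjusted p = 0.209). Cd22 also had no overlap, so that 3 of the 7 members tested were higher without overlap, against 1.11% of all genes, and Cr2, which was not tested, had none either. limma called 0 of 7 members and 0 of 16248 genes (0% of all), with 1559 at an unadjusted p under 0.05, and the fit without trend and robust settings called 0 members. A fit with all 6 groups, which share 1 estimate of the spread, called 4 of 7 members higher, with 2.52% of all genes called higher. Replicate 2 of MT2 rTIMP2, with 753 counts of Cd79a, had 0.983 counts of the reporter and 63.9 of Hmga2, while replicate 5, with 441 of Cd79a, had 55.3 of the reporter and 3112 of Hmga2. Replicates 3 and 4 had 3309 and 4378 of Hmga2. In replicates 3, 4 and 5 a Cd79a level above all MT2 HBSS lungs stood beside an Hmga2 level in the range of the MT2 HBSS lungs. Replicate 1, with 70.6 of Cd79a, had 5300 of Hmga2, above that range. The part of the carcinoma level was not tested.

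Against MT2 tumour-free lungs, MT2 rTIMP2 lungs were lower for 5 of 9 members, with 32.7% of all genes called lower: Fcer2a at -2.61 ± 0.89, Cr2 at -2.06 ± 0.81, Pax5 at -1.91 ± 0.75, Ms4a1 at -1.65 ± 0.63 and Cd22 at -1.31 ± 0.43 on the log2 scale (limma adjusted p 0.024 to 0.048). Cd79a at -1.66 ± 0.67 and Cd79b at -1.64 ± 0.66 did not pass, nor did Jchain at -0.52 ± 0.54 and Mzb1 at -0.52 ± 0.49. The count fell to 0 without rTIMP2 replicate 3 or without tumour-free replicate 1, 2 or 3, to 1 without rTIMP2 replicate 1 or 4 and to 2 without tumour-free replicate 4 or 5, and it was 7 of 9 without rTIMP2 replicate 2 or 5, with 39.4% and 29.5% of all genes called lower in those fits. Between the genotypes under rTIMP2, MT2 lungs had lower means than WT lungs for all 9 genes, with Cd79a at 283 ± 307 in MT2 and 449 ± 238 in WT lungs (SD, n = 5 each). limma called 0 of 9 and 0 of 16858 genes (0% of all), with 2998 at an unadjusted p under 0.05, and without MT2 rTIMP2 replicate 2 it called 3 of 9 members lower, beside 21.0% of all genes called lower and 14.3% called higher in that fit. The genotype by rTIMP2 interaction was 1.03 ± 1.02 for Cd79a and -0.33 ± 1.06 for Jchain, and limma called 0 of 9 members and 0 of 17841 genes (0% of all), with 1053 at an unadjusted p under 0.05. The SE of these interaction values ran from 0.67 for Cd22 to 1.41 for Pax5. The fit without trend and robust settings called 0 members in both of these comparisons.

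The list of other B cell genes followed the members under rTIMP2. In WT mice 9 of 23 rose and 0 fell against HBSS, where 16.0% of all genes were called higher and 11.3% lower. The largest rises were Vpreb3 at 2.73 ± 0.92, Fcmr at 2.63 ± 0.74, Fcrla at 2.24 ± 0.72 and Blk, a B cell kinase, at 2.16 ± 0.69. In MT2 mice 0 of 20 tested passed and 18 had positive values. In WT mice 4 of 11 T cell markers, 5 of 5 endothelial, 5 of 5 alveolar type 2 and 4 of 7 NK cell markers also rose, and Ptprc rose by 0.92 on the log2 scale. Scaled to Ptprc, 4 members were called higher in WT rTIMP2 lungs (Cd79a, Cd79b, Ms4a1 and Cr2), with Cd79a at 1.22 ± 0.46, beside 5.78% of all genes called higher and 41.7% lower, and a median of all genes of -0.87. In MT2 rTIMP2 lungs 3 of 7 were called higher (Cd79a, Cd79b and Ms4a1), with Cd79a at 1.83 ± 0.57, beside 0.215% of all genes called higher and 64.3% lower, and a median of all genes of -1.31. In WT mice 3 of 11 antibody constant genes rose, Iglc2 by 2.64 ± 0.81, Ighd by 2.31 ± 0.68 and Igha by 1.71 ± 0.57, and 3 of 12 plasma cell genes rose and 1 fell, Irf4 by 1.86 ± 0.55, Prdm1 by 1.25 ± 0.37 and Sdc1 by 0.60 ± 0.20, while Fkbp11 differed by -1.44 ± 0.42.

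Jchain in the WT rTIMP2 lungs was at 141, 441, 1274, 338 and 491 normalized counts, against 483, 152, 54.6, 76.5 and 41.4 in WT HBSS and 117 to 209 in WT tumour-free lungs. Its WT rTIMP2 mean was 313.35% of the tumour-free mean, and 205.788% without rTIMP2 replicate 3, where the 7 B cell genes were at 56.7% to 96.9% with all lungs. The Jchain difference from tumour-free lungs did not pass (limma adjusted p = 0.236). Replicate 3 also had the highest Mzb1 (152), Ighm (7784), Igkc (4757) and Ighg1 (841) of the 30 lungs and the highest Cxcl13 (498), the chemokine that draws B cells into follicles. WT HBSS replicate 1, with the highest Jchain of the WT HBSS and tumour-free lungs, had 441 of Cxcl13 and 3187 of Ighm, but MT2 HBSS replicate 3 had 192 of Cxcl13 with 14.5 of Jchain. Markers of another tissue were high in some of these lungs. A list of 8 genes of layered squamous epithelium, the lining of the oesophagus and upper airway, chosen after the values were seen (Krt13, Krt4, Krt5, Krt14, Krt6a, Sprr3, Dsg3 and Trp63), summed to 234807 in WT rTIMP2 replicate 3, 79226 in replicate 2, 48301 in WT HBSS replicate 1 and 21342 in WT HBSS replicate 4. In the other 26 intratracheal lungs the sum was 10.7 to 1341, and it was 156 in WT rTIMP2 replicate 5, where Jchain was 491. The part of that tissue in the Jchain, Mzb1 and B cell gene levels was not tested.

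**Figure D4:**
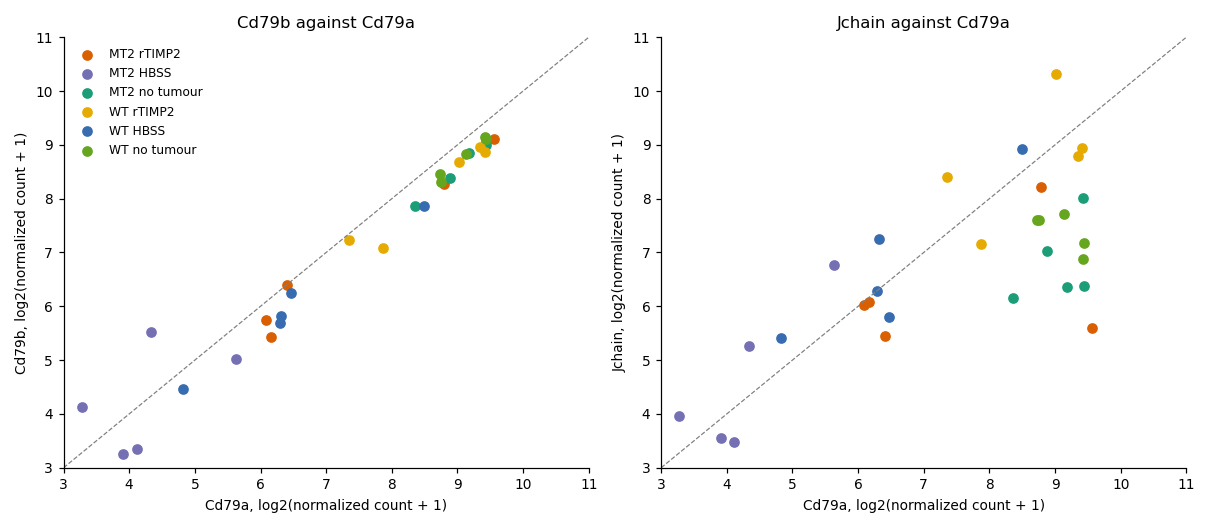
Cd79b (left) and Jchain (right) against Cd79a in the 30 intratracheal lungs, each as log2(normalized count + 1), with the line of equal values. Points are lungs, coloured by group. Cd79b follows Cd79a except in the lowest lungs, while Jchain lies above Cd79a in 3 of the 5 lungs of each HBSS group and below it in every tumour-free lung.

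Among themselves, the 7 B cell genes rose and fell as a set from lung to lung and the plasma cell genes did so less. Over the 30 intratracheal lungs, Pearson's r of log2 levels between any pair of the 7 was 0.82 to 0.99, and 0.53 to 0.97 with group means taken out, while r with Jchain or Mzb1 was 0.50 to 0.85 over all lungs and 0.20 to 0.76 within groups. These lungs share the contrast with tumour, so the values describe these libraries only. Cd79a stood at 1.20 to 1.42 times Cd79b in the 10 tumour-free lungs and at 1.31 to 1.46 times in the 14 subcutaneous lungs. In the MT2 HBSS lungs, where both are low, the ratio was 0.426 to 1.78. Jchain was at a median of 1.67 times Cd79a in MT2 HBSS and 0.215 times in MT2 tumour-free lungs, and of 1.34 times in WT HBSS and 0.373 times in WT tumour-free lungs. Among the genes whose levels were most like Cd79a over these 30 lungs, of 13895 with a mean of 50 or more and leaving out members and antibody segments, were Bank1 (r = 0.99), Fcrla, Fcmr and Ptprcap (0.98). For Jchain the nearest were Mreg (0.85), Ly6d, Mpzl3, Prxl2b and Sptssb (0.80), and 4 antibody segments were among its 50 nearest genes.

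In the subcutaneous experiment the carcinoma grew outside the lung, and its table was normalized separately, so no level was compared across tables. From day 7, rTIMP2 went with a higher Cr2: 1 of 9 members was called, against 4.46% of all genes called higher. Cr2 had 149, 166, 163 and 207 in lungs given rTIMP2 from day 7, against 166, 75.7, 99.7, 89.9 and 79.6 in HBSS lungs, a log2 difference of 0.79 ± 0.20 (limma adjusted p = 0.0276). HBSS replicate 1 was the only HBSS lung within the rTIMP2 range. Pax5 averaged 462 ± 78.8 in lungs given rTIMP2 from day 7 (SD, n = 4) and 278 ± 97.9 in HBSS lungs (SD, n = 5), a log2 difference of 0.77 ± 0.21 that just missed the threshold. The other members differed by -0.12 (Mzb1 and Jchain) to 0.67 (Fcer2a) and did not pass. The Cr2 call was lost without day 7 replicate 2, 3 or 4 or HBSS replicate 2, 3, 4 or 5, with adjusted p up to 0.0863, and scaled to Ptprc its log2 difference was 0.35 ± 0.32.

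From day 0, rTIMP2 lungs were above HBSS lungs for all 9 members, by 0.06 to 0.78 in the mean of the log2 levels. When scaled to Ptprc, 8 of the 9 differences turned negative. None passed without that scaling: limma called 0 of 9, against 8.10% of all genes, with 1399 of 17282 called and 4496 at an unadjusted p under 0.05. The fit without trend and robust settings also called 0 members. The closest was Cd22, with 673, 574, 727, 649 and 729 in lungs given rTIMP2 from day 0, against 691, 305, 401, 429 and 432 in HBSS lungs, a log2 difference of 0.62 ± 0.18 (limma adjusted p = 0.0547). HBSS replicate 1 lay among the rTIMP2 lungs and the other 4 HBSS lungs lay below all 5 of them. Fcer2a averaged 302 ± 49.4 in lungs given rTIMP2 from day 0 and 189 ± 97.7 in HBSS lungs (SD, n = 5 each), a log2 difference of 0.78 ± 0.27, and Jchain averaged 155 ± 85.3 in lungs given rTIMP2 from day 0 and 88.7 ± 38.1 in HBSS lungs. Between the start days, lungs given rTIMP2 from day 7 and from day 0 differed by -0.85 ± 0.58 for Jchain and by 0.47 ± 0.17 for Ms4a1. limma called 0 of 9 members in that comparison, against 0.235% of all genes, with 41 of 17481 called and 2249 at an unadjusted p under 0.05, and the fit without trend and robust settings called 0 members.

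**Figure D5:**
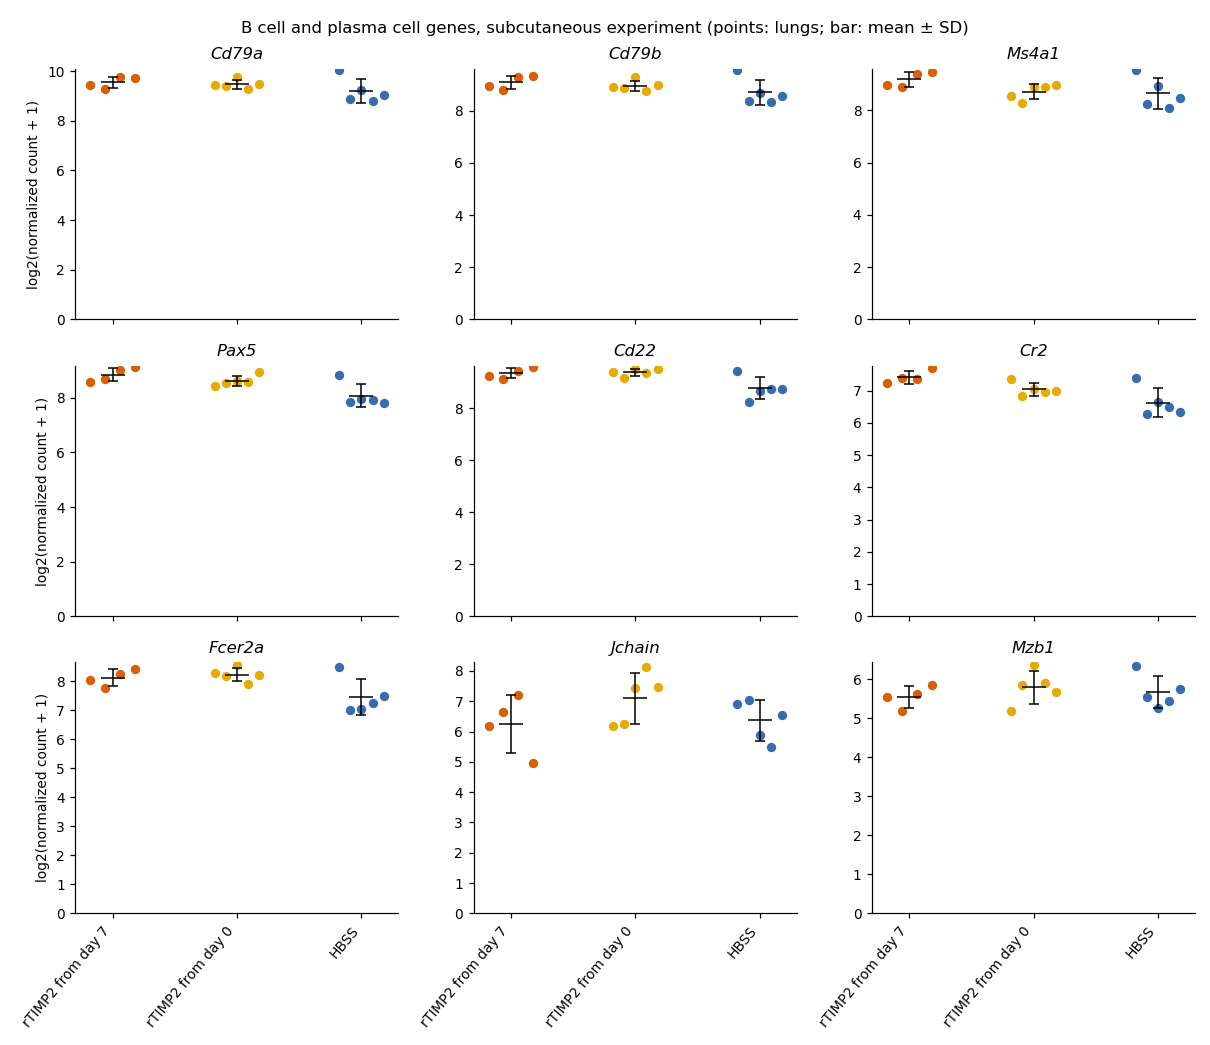
Level of each of the 9 genes in the 14 lungs of the subcutaneous experiment, as log2(normalized count + 1), by group. Points are lungs, and bars are the mean and SD of the log2 values over 4 lungs for day 7 and 5 lungs for day 0 and for HBSS. For Cd22, Cr2, Fcer2a and Pax5, 4 of the 5 HBSS lungs lie low and HBSS replicate 1 lies with the rTIMP2 lungs.

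The subcutaneous counts moved most when HBSS replicate 1 was left out. Its Cd79a was 1049, against 444 to 597 in the other 4 HBSS lungs, and its Pax5 was 453, against 222 to 248. Without that lung limma called 6 of 9 members higher from day 7, with 5.49% of all genes called higher, and 6 of 9 from day 0, with 3.95% of all genes called higher, in both cases Cd79a, Cd79b, Pax5, Cd22, Cr2 and Fcer2a, with log2 differences from 0.48 ± 0.11 (Cd79b, day 0) to 1.04 ± 0.14 (Fcer2a, day 0). Jchain and Mzb1 were not called, with 0.02 ± 0.56 and 0.04 ± 0.20 from day 7 and 0.86 ± 0.50 and 0.30 ± 0.22 from day 0. The squamous epithelium list summed to 44312 in that lung and to 327 to 655 in the other HBSS lungs, to 1073 to 1387 in lungs given rTIMP2 from day 7 and to 596 to 1366 in lungs given it from day 0. The part of that tissue in its B cell gene levels was not tested. Ptprc itself ran from 2163 to 8346 over the 14 lungs, so a scaling to Ptprc carries that spread. Of 23 other B cell genes, 2 rose from day 0, Tnfrsf13b by 0.67 ± 0.17 and Ralgps2 by 0.41 ± 0.11, and 0 passed from day 7, with 19 positive values from day 0 and 21 from day 7. Of 9 antibody constant genes, Ighg2b rose by 1.96 ± 0.39 from day 0 and 0 passed from day 7, and of 11 T cell markers 1 rose in each comparison. These list counts are from the fits with all lungs, where 671 of 17282 genes were called higher from day 0. From day 7, 776 of 17389 genes (4.46%) were called higher.

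Over the 14 subcutaneous lungs, Pearson's r of log2 levels between pairs of the 7 B cell genes was 0.60 to 0.99, while r with Jchain or Mzb1 was -0.10 to 0.58 and r between Jchain and Mzb1 was 0.37, against 0.80 in the intratracheal lungs. Among the genes most like Cd79a, of 14114, were Fcrla (r = 0.92), Srpk3, H2-DMb2 and Rhoh (0.89), and for Jchain the nearest were Atpaf2 (0.81), Hmgb3, Yars, Thumpd1 and Prag1 (0.75), with 0 antibody segments among its 50 nearest. 5 members were among the 50 genes nearest to Cd79a in each table.

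Sftpc, the surfactant gene of alveolar type 2 cells, was present in all 44 lungs, at 4598 or more. Its lowest value was in MT2 HBSS replicate 1, where MT2 tumour-free lungs had 171137 to 195966. Timp2 RNA was 5948 to 6237 in MT2 tumour-free and 10147 to 11489 in WT tumour-free lungs. From the spacing of low values, library depth was estimated at 10.68 to 17.12 M reads in the intratracheal and 14.85 to 19.39 M reads in the subcutaneous table. The Y-linked gene Ddx3y had 123 to 1321 counts in all intratracheal tumour lungs and 0.91 to 5.78 in all tumour-free lungs, and the labels give no sex. This difference and tumour cannot be told apart in the comparisons with tumour-free lungs. WT rTIMP2 replicates 2, 3 and 5 had 1024 to 1321 counts of Ddx3y and 42.2 to 92.4 of the female-specific RNA Xist, where WT tumour-free lungs had 4118 to 5057 of Xist, and their Cd79a was in the range of the WT tumour-free lungs.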

How the data were processed

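RNA was measured by polyA RNA-seq in 44 lung libraries in 9 groups. The authors deposited normalized counts per gene, a signal value scaled for depth, in 2 tables that were normalized separately; mm10, Partek, Bowtie2, STAR and DESeq2 are named in the submitters' processing notes, with no role or version. Only 78.8 to 84.5% of low values were whole multiples of a step, within a tolerance of 0.02, so no count model was run and depths are estimates. Values were taken as log2(value + 1), genes with 10 or more in as many lungs as the smaller group were kept, and limma 3.58.1 (R 4.3.3; trend and robust eBayes) was fitted on the lungs of each of 14 comparisons, with Benjamini-Hochberg adjustment over all genes, after tests on simulated data. The members and lists, and the alternatives scaled to Ptprc, were chosen with earlier results of these data known. Named genes were the 9 members, up to 4 called genes of each list by size, and the 5 genes most like Cd79a and Jchain, beside context genes; genes that complete a count of 5 or fewer, Cd72 and the squamous list were named after their values were seen. A gene that this rule names is not reported here. p-values measure the spread between lungs, which the labels number without saying how mice were assigned. In no comparison did the deviations of every pair of same-numbered lungs correlate above 0.1. Single pairs ran from -0.57 (MT2 against WT, HBSS) to 0.78 (MT2 against WT, rTIMP2). The alternatives were another pseudocount, no filter, quantile and upper quartile scaling, plain eBayes, a fit of all groups, the replicate block and leaving out each lung. No 2 libraries held identical values. The RefSeq promoter table gave the sequences, and none is shown for Mzb1. Protein sequence was not used here.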

Additional observations from a re-analysis of the deposited data

Results flagged for a closer look

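Of 81 groups of values, 20 held a lung whose gap to its nearest neighbour was large for the range of its group. Chance gives about 1 in 20 where groups are independent and values are normally spread. The gaps were taken on counts, not on log2 levels, and most members rise and fall together. The 20 therefore cannot be weighed against that share. In WT HBSS replicate 1 such a gap held for 8 members: Cd79a at 359.637, Cd79b at 233.181, Ms4a1 at 187.442, Cd22 at 224.212, Cr2 at 85.201, Fcer2a at 74.439, Jchain at 482.508 and Mzb1 at 94.93 normalized counts, each the highest of its group. The other WT HBSS lungs had 27.2 to 87.3 of Cd79a and 41.4 to 152 of Jchain. In subcutaneous HBSS replicate 1 it held for Cd79a at 1049.16, Cd79b at 749.94, Pax5 at 452.578, Cr2 at 166.444 and Fcer2a at 360.005. In MT2 HBSS replicate 4 it held for Cd79a at 48.523, Cd22 at 70.406, Jchain at 108.464 and Mzb1 at 33.902, where the other MT2 HBSS lungs had 8.70 to 19.2 of Cd79a. Single values were Jchain at 297.852 in MT2 rTIMP2 replicate 5, Pax5 at 491.861 in replicate 5 of rTIMP2 from day 0, and Cr2 at 132.336 in WT tumour-free replicate 5. In the squamous epithelium list, WT HBSS replicate 1, subcutaneous HBSS replicate 1 and MT2 HBSS replicate 4 had the highest sums of their groups, at 48301, 44312 and 1341, and the part of that tissue was not tested.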

How the results depend on the processing

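The counts of members called against tumour-free lungs in HBSS mice stayed within 1.5 times under each alternative run, 6 to 9 in MT2 and 7 to 9 in WT mice with 1 lung left out or another setting. For WT rTIMP2 against HBSS the count was 0 to 9 with 1 lung left out, 9 in a fit of all groups and 4 to 6 under the settings without a block. For MT2 rTIMP2 against HBSS it was 4 in the fit of all groups and 3 scaled to Ptprc, against 0. For MT2 rTIMP2 against tumour-free lungs it was 0 to 7 with 1 lung left out, 3 with no filter, 3 without trend and robust settings and 1 scaled to Ptprc, against 5. From day 7 it was 0 to 6 with 1 lung left out, 2 with pseudocount 0.5, quantile, upper quartile or all groups, and 0 without trend and robust settings or scaled to Ptprc, against 1. From day 0 it was 0 to 6 with 1 lung left out and 1 with quantile, upper quartile or all groups, against 0. Between genotypes under rTIMP2 it was 0 to 3 and in the genotype by tumour interaction 0 to 1 with 1 lung left out. The cause of these moves was not tested. Of 2480 single-gene values under all alternatives, 2305 kept their side of the threshold, and 0 called values changed sign.

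Same-numbered lungs share only a number, and in WT rTIMP2 against HBSS their deviations correlated at -0.46 to -0.28. With the replicate block the count was 0 for WT rTIMP2 against HBSS, 3 for MT2 rTIMP2 against tumour-free lungs, 0 from day 7, 1 from day 0 and 1 between the start days, and the other counts were as without it. Depth is an estimate, and genes under 10 normalized counts, such as Cr2 and Fcer2a in MT2 HBSS lungs, are near the limit of what these libraries resolve.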
